A study of Mus musculus with 20 samples.

Results

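Tubulin is the protein from which microtubules are built, and the subject here is its alpha and beta genes in motor neurons differentiated from embryonic stem cells of the mouse and exposed to stress of the endoplasmic reticulum (ER). The 10 genes were chosen by name: Tuba1a, Tuba1b and Tuba1c on the alpha side, and Tubb2a, Tubb2b, Tubb3, Tubb4a, Tubb4b, Tubb5 and Tubb6 on the beta side. Earlier results of these data were known when they were chosen. They are 10 of the 24421 genes counted, and 10 of 10 were among the 14792 genes with enough reads to be tested. After 12 h of the stress agent their summed level was 38.3% and 51.8% of that in untreated libraries in the cranial neurons, and 38.6% and 52.3% in the spinal neurons. The same 5 genes, Tuba1a, Tuba1b, Tubb2a, Tubb2b and Tubb5, fell in both kinds of neuron at that time. The other 5 did not pass the test in either line, and Tubb6 alone had a positive change in both.

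Alpha- and beta-tubulin pair into a dimer, and dimers add head to tail to form the microtubules that fill axons and carry their transport. The monomers are folded by the chaperonin CCT together with prefoldin and the tubulin cofactors. Mammalian cells also adjust tubulin mRNA to the amount of free dimer: the factor TTC5 binds the first residues of tubulin as they leave the ribosome, and with SCAPER and the CCR4-NOT complex, which it reaches through CNOT11, it brings about decay of the mRNA being translated. Motor neurons extend very long axons and express tubulin strongly.

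The neurons were of a cranial type, labelled NIP, and a spinal type, labelled NIL. As background, these names stand for the factors Neurog2 and Isl1 together with Phox2a in NIP and with Lhx3 in NIL, although the labels do not spell them out. Neurons at day 2 received 20 µM cyclopiazonic acid (CPA), an inhibitor of the SERCA calcium pumps of the ER, which empties the ER of calcium and so disturbs protein folding. For each line the groups were 12 h with CPA, 36 h with CPA, 12 h untreated, 36 h untreated and 0 h untreated, with 2 libraries in each of the 10 groups and no genetic change between treated and untreated cells. The times 12 h and 36 h are those of the sample titles, which the description of the extraction repeats; elsewhere the labels speak of 6 h and 12 h, a conflict that could not be settled. The labels do not say whether the libraries of a group came from separate cultures, so each p-value reflects only how far these libraries spread, which may be technical.

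The 20 libraries held 7.996 to 30.32 M gene reads (median 19.8 M). Untreated NIP 36 h replicate 1 and CPA-treated NIL 36 h replicate 2 stood apart, with 38.6% and 38.3% of gene reads at Rn45s, the ribosomal RNA precursor, against a median of 11.6%. All 7 motor neuron markers (Chat, Slc18a3, Slc5a7, Isl1, Isl2, Mnx1 and Prph) and all 8 neuron markers had reads in every library. So did all 12 markers of endoderm and endothelium, all 10 of proliferation and all 8 of neural progenitors. The presence of reads alone therefore does not tell these cell types apart. Replicate numbers marked sets of libraries: with the number as a block in the model, 49.2% of genes differed between replicate 2 and replicate 1, and 4 of the 10 tubulin genes did. Tubb4a was lower in replicate 2 by a log2 difference of -0.83 ± 0.08 (SE), Tubb2a by -0.38 ± 0.08 and Tubb3 by -0.37 ± 0.11, while Tuba1c was higher by 0.45 ± 0.09 (adjusted p from 1.19e-06 to 0.0102). Levels below are in CPM, read counts scaled to a common total of gene reads, with library sizes adjusted by TMM. The log2 changes and their standard errors come from an edgeR quasi-likelihood model over all 20 libraries, and a gene is called where its p, adjusted over all 14792 genes, is below 0.05. In bulk RNA, fewer cells of a type and less RNA per cell cannot be told apart.

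How well the 10 genes can be told apart by their reads sets how each value can be read. The first coding bases, with the start codon and the following 3 codons in capitals, show both how alike the genes are and the stretch that encodes the residues read by TTC5. They come from the GENCODE transcripts (mouse release M21, GRCm38) and are given for 9 of the 10 genes:
Tuba1a: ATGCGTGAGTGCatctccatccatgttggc
Tuba1b: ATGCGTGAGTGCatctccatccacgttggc
Tuba1c: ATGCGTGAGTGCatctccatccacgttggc
Tubb2a: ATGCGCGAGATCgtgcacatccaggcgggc
Tubb2b: ATGCGAGAGATCgtgcacattcaggcgggc
Tubb3: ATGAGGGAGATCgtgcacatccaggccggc
Tubb4a: ATGCGGGAAATCgtgcacctgcaagccggt
Tubb4b: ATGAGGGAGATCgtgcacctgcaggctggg
Tubb5: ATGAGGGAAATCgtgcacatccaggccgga
The 3 alpha genes share the capitals letter for letter, and the beta genes shown differ from them in the last of the codons in capitals. Tuba1b and Tuba1c are identical over all 30 bases shown.

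Over the whole coding sequence the 3 alpha genes were 97.1% to 98.3% identical and Tubb2a and Tubb2b 96.5%, while the other pairs of beta genes were 80.2% to 86.1% identical. The counter named in the submitters' notes skips reads with several mapping places, so the share of a transcript that is repeated elsewhere is a measure of possible undercounting. Of all stretches of 50 bases in the main transcript, 83.1% in Tuba1b, 75.5% in Tuba1a, 61.0% in Tuba1c, 55.5% in Tubb4b, 49.6% in Tubb2a and 39.3% in Tubb2b were also found in transcripts of another gene. Of the stretches of Tuba1b, 59.3% were also in Tuba1c and 57.0% in AC157548.1, and of those of Tuba1c, 52.0% were in Tuba1b and 42.5% in Tuba1a. Tubb2a shared most with Tubb2b (45.6%) and Tubb4b with the pseudogene Tubb4b-ps1 (43.6%). Tubb3 and Tubb6 shared none of these stretches, Tubb4a 0.184% and Tubb5 0.115%, so these 4 genes are the ones whose reads can be assigned throughout. The levels of the other 6 are lower limits, and reads may be split among paralogs. Tuba1a (chromosome 15, 98949837 to 98953703, minus strand) and Tuba1b (chromosome 15, 98931425 to 98934565, minus strand) lie under the annotated readthrough gene Gm49450, and Tubb3 (chromosome 8, 123411424 to 123422015, plus strand) lies within Gm20388. Neither of these 2 overlapping genes is among the counted symbols. On the opposite strand, Tuba1b overlaps the antisense gene Gm41396 by 241 bases and Tubb4b (chromosome 2, 25222160 to 25224702, minus strand) overlaps Fam166a by 121 bases, and whether counting used strand is not given in the sources used here. The others lie apart from annotated genes: Tuba1c at chromosome 15, 99029891 to 99038110 (plus strand), Tubb2a at chromosome 13, 34074274 to 34078007, and Tubb2b at chromosome 13, 34126748 to 34130466 (both minus strand). Tubb4a lies at chromosome 17, 57080066 to 57087782, and Tubb5 at chromosome 17, 35833921 to 35838306 (both minus strand).

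The stretches of DNA before the starts of Tubb2a and Tubb5, a gene with a near-identical paralog and one without, are shown because both genes fell with CPA in both lines. They are 120 bases up to the base before the RefSeq start (GRCm38.p6, minus strand), chr13:34078009-34078128 and chr17:35838302-35838421, with the motif matches in capitals:
Tubb2a: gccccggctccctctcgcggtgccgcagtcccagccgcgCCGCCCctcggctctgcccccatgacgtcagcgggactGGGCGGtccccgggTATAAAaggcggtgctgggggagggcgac
Tubb5: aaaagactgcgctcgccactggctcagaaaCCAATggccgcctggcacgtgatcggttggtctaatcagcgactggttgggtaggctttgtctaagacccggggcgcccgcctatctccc
Windows of 300 bases around the RefSeq starts were matched for 8 of the 10 genes, and 5 motifs were searched on both strands. GGGCGG was found in 6 of the 8 (35.7% of 32851 promoters held it), CCAAT in 5 (37.4%), TATAAA in 2 (13.6%) and TGATGNAA, the core of the site for ATF4 and CHOP, in 1, Tubb3 (3.97%). The ER stress response element was in 0 of the 8 and in 0.119% of all promoters. CCAAT is also part of that longer element.

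At 0 h the genes spanned a wide range, and the order was led by the same 4 genes in both lines. Per kilobase of exon, Tuba1a, the main alpha-tubulin of young neurons, came first with 1660.3 ± 39.4 CPM per kb in NIP and 1602 ± 71.0 in NIL (SD, n = 2 each). Tubb3, the neuron-specific beta-tubulin, came second in NIP at 1359 ± 31.8 CPM per kb and stood at 861 ± 161 in NIL. Tubb5, a beta-tubulin used widely in developing brain and in dividing cells, stood at 1012.5 ± 92.1 CPM per kb in NIP and 876 ± 21.8 in NIL, where its libraries overlapped those of Tubb3. Tubb2b, a beta-tubulin of migrating and growing neurons, followed at 686 ± 115 CPM per kb in NIP and 652 ± 86.8 in NIL. After a gap came Tubb2a (247 ± 1.76 CPM per kb in NIP, 141 ± 28.9 in NIL), Tuba1b (183 ± 3.21 in NIP, 171 ± 10.1 in NIL) and Tubb4b (132 ± 11.6 in NIP, 96.7 ± 31.6 in NIL). The lowest 3 were Tubb4a (104 ± 19.8 CPM per kb in NIP, 52.9 ± 21.3 in NIL), Tubb6 (45.2 ± 15.4 in NIP, 23.0 ± 15.9 in NIL) and Tuba1c (38.0 ± 8.31 in NIP, 39.5 ± 11.7 in NIL). In NIP only Tubb6 and Tuba1c overlapped as neighbours in this order. In NIL the overlapping neighbours were Tubb5 with Tubb3, Tubb4a with Tuba1c and Tuba1c with Tubb6. The genes with repeated sequence, above all Tuba1b and Tuba1c, may stand too low here.

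**Figure D1:**
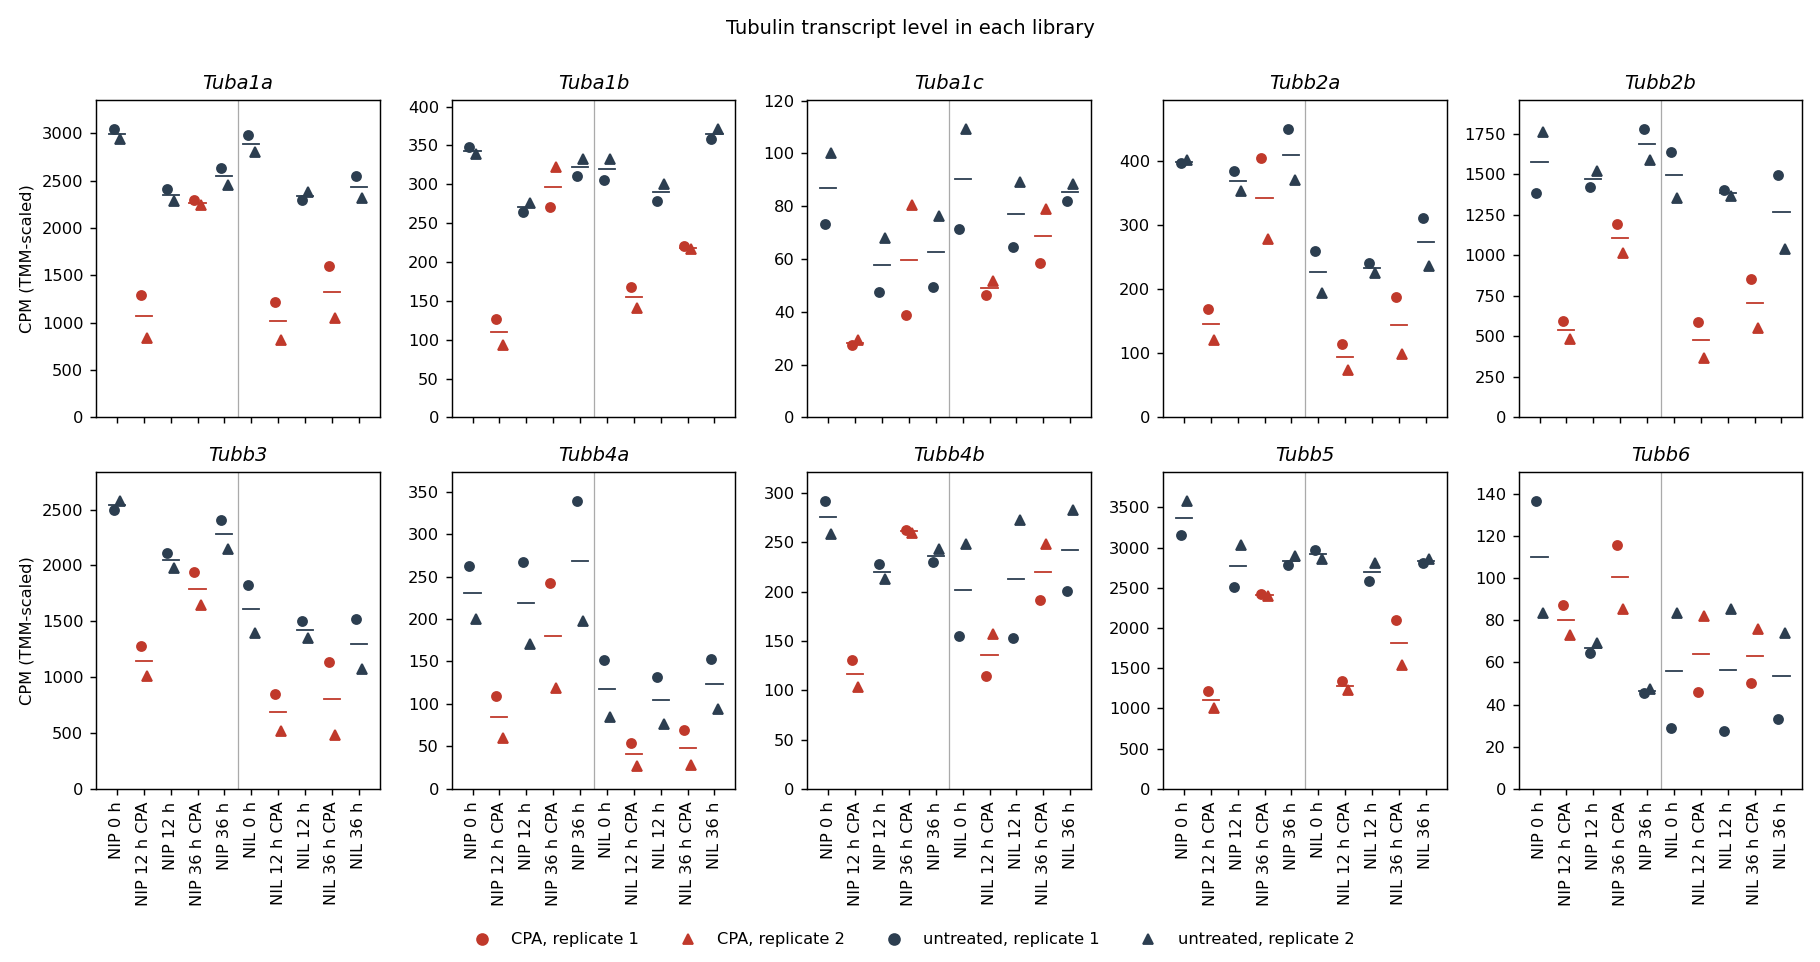
Level of each tubulin gene in every library, in CPM (TMM-scaled, vertical axis from 0), for the 10 groups along the horizontal axis with NIP left and NIL right; red is CPA, dark is untreated, circles are replicate 1, triangles replicate 2 and lines the mean of the 2 libraries. Tubb5 at 12 h shows the common shape, with both CPA libraries of each line far below the untreated ones, and Tubb6 shows no such drop.

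The main question the design puts to these genes is what CPA did to their mRNA, and at 12 h the answer was a drop of similar size in both lines. In NIP 5 of the 10 genes fell and 0 rose, where 4.71% of all tested genes passed the test in either direction. In NIL 5 fell and 0 rose, where 2.21% of all genes passed. The median log2 change of the 10 genes was -1.22 in NIP and -1.06 in NIL, against medians over all genes of -0.01 in NIP and -0.03 in NIL. Of the 10 genes, 9 had a negative change in each line, and Tubb6 was the exception in both.

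On the alpha side, Tuba1a stood at 1295 and 838 CPM in CPA-treated NIP libraries, against 2414 and 2286 CPM in untreated NIP libraries. In NIL it stood at 1216 and 812 CPM with CPA and at 2295 and 2380 CPM without. Each treated library lay below each untreated one, and Tuba1a fell in both lines (log2 change -1.14 ± 0.26, adjusted p = 0.0257 in NIP; -1.20 ± 0.26, adjusted p = 0.0309 in NIL). Tuba1b, a widely expressed alpha-tubulin, had 127 and 92.6 CPM in CPA-treated NIP libraries, against 265 and 277 CPM in untreated NIP libraries. Its values in NIL were 168 and 141 CPM with CPA and 278 and 301 CPM without. It fell by 1.30 ± 0.17 on the log2 scale in NIP (adjusted p = 0.000981) and by 0.91 ± 0.17 in NIL (adjusted p = 0.0114), again with no overlap. The share of all genes without overlap was not counted in any CPA comparison. Tuba1c, the least abundant alpha gene, had 27.4 and 29.2 CPM in CPA-treated NIP libraries, against 47.5 and 67.9 CPM in untreated ones, and 46.4 and 51.6 CPM in CPA-treated NIL libraries, against 64.6 and 89.3 CPM in untreated ones. Its treated libraries lay below the untreated ones in both lines, and it passed the test in neither (log2 change -1.03 ± 0.34, adjusted p = 0.121 in NIP; -0.65 ± 0.34, adjusted p = 0.450 in NIL).

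Among the beta genes the largest negative changes at 12 h belonged to Tubb2b. It stood at 593 and 486 CPM in CPA-treated NIP libraries, against 1419 and 1520.3 CPM in untreated NIP libraries, and at 588 and 364 CPM in CPA-treated NIL libraries, against 1402 and 1365 CPM in untreated NIL libraries. The log2 change was -1.45 ± 0.28 in NIP (adjusted p = 0.0117) and -1.54 ± 0.28 in NIL (adjusted p = 0.0116). Tubb2a, its close paralog, was less abundant and moved by nearly the same factor. It had 169 and 121 CPM in CPA-treated NIP libraries, against 383 and 353 CPM in untreated ones, and 114 and 74.1 CPM in CPA-treated NIL libraries, against 241 and 224 CPM in untreated ones. Tubb2a fell by 1.35 ± 0.31 in NIP (adjusted p = 0.0250) and by 1.31 ± 0.31 in NIL (adjusted p = 0.0446) on the log2 scale.

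Tubb5, whose reads are almost free of repeats, stood at 1221 and 1000.4 CPM in CPA-treated NIP libraries, against 2515 and 3029 CPM in untreated NIP libraries. In NIL it stood at 1338 and 1225 CPM with CPA, against 2584 and 2804 CPM without. It fell by 1.32 ± 0.21 in NIP (adjusted p = 0.00346) and by 1.07 ± 0.21 in NIL (adjusted p = 0.0149) on the log2 scale, with a wide gap between the groups. Among the genes whose reads can be assigned throughout, Tubb5 alone passed at 12 h in the fit without a replicate block. Tubb3, Tubb4a and Tubb6 did not pass there in either line. The part of reads lost between paralogs in these changes was not tested.

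Tubb3, Tubb4a and Tubb4b had negative changes at 12 h and did not pass the test. Tubb3 had 1275 and 1009.9 CPM in CPA-treated NIP libraries, against 2114 and 1979 CPM in untreated NIP libraries, and 852 and 522 CPM in CPA-treated NIL libraries, against 1499 and 1351 CPM in untreated NIL libraries. Its groups did not overlap, and its changes were -0.84 ± 0.35 in NIP (adjusted p = 0.229) and -1.05 ± 0.35 in NIL (adjusted p = 0.169). Tubb4a, a beta-tubulin of brain that is also high in oligodendrocytes, had 109 and 59.4 CPM in CPA-treated NIP libraries, against 267 and 170.4 CPM in untreated ones, and 54.5 and 27.1 CPM in CPA-treated NIL libraries, against 132 and 76.4 CPM in untreated ones. Replicate 2 of Tubb4a was below replicate 1 in all 10 groups, and the standard errors were correspondingly wide (-1.38 ± 0.54, adjusted p = 0.201 in NIP; -1.36 ± 0.55, adjusted p = 0.272 in NIL). Tubb4b, a beta-tubulin found in most tissues and in cilia, had 130.3 and 103 CPM in CPA-treated NIP libraries, against 228 and 213 CPM in untreated ones (-0.92 ± 0.29, adjusted p = 0.100). In NIL its libraries overlapped, with 115 and 157 CPM after CPA and 153 and 272 CPM without (-0.65 ± 0.29, adjusted p = 0.344).

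Tubb6, a divergent beta-tubulin known mostly from non-neuronal cells, stood apart from the other 9. In NIP it had 87.2 and 73.0 CPM with CPA and 64.5 and 69.4 CPM without (log2 change 0.26 ± 0.55, adjusted p = 0.896). In NIL it had 46.0 and 81.9 CPM with CPA and 27.6 and 85.3 CPM without (0.19 ± 0.56, adjusted p = 0.959). The difference between the NIL replicates was larger than that between the treatments.

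The pairing of libraries by replicate number changed which genes passed at 12 h. With that number as a block, 9 of 10 fell in NIP, where 14.1% of all genes passed, and 7 of 10 fell in NIL, where 7.94% of all genes passed. In that fit Tubb4a fell by 1.41 ± 0.17 in NIP (adjusted p = 5.83e-05) and by 1.38 ± 0.18 in NIL (adjusted p = 0.000124), and Tubb3 by 0.86 ± 0.25 in NIP (adjusted p = 0.0280) and by 1.09 ± 0.25 in NIL (adjusted p = 0.0118). Tuba1c (-0.999 ± 0.19, adjusted p = 0.00206) and Tubb4b (-0.91 ± 0.24, adjusted p = 0.0164) passed in NIP alone with the block. The change of Tubb6 was 0.28 ± 0.53 (adjusted p = 0.784) in NIP and 0.25 ± 0.54 (adjusted p = 0.846) in NIL with the block.

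Leaving out 1 library at a time cut the 12 h calls down. In NIP 1 to 2 of the 10 genes still passed, Tuba1b in all 4 such fits and Tubb5 in 3 of 4, while the share of all genes that passed was 0.734% to 1.56%. In NIL 0 to 2 passed, where 0.754% to 0.848% of all genes did: only without CPA-treated NIL replicate 1 were Tuba1b and Tubb2b still called, and without either untreated library or CPA-treated replicate 2 the count was 0. The log2 changes of the 9 genes other than Tubb6 were negative in all 11 alternative fits in each line.

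The summed levels of several marker lists differed in the 12 h comparison, and a sum can rest on its most abundant members. Median log2 changes of the neuron markers were -0.865 in NIP and -0.837 in NIL. Those of the motor neuron markers were -0.181 in NIP and -0.537 in NIL. For the neural progenitor markers they were -0.01 in NIP and -0.559 in NIL. The summed level of the 8 neuron markers was 4008 to 4986 CPM in CPA-treated NIP libraries, against 5546 to 8232 CPM in untreated ones, and 3563 to 4583 CPM in CPA-treated NIL libraries, against 5015 to 7543 CPM in untreated ones; 0 of 8 passed the test in either line. The 7 motor neuron markers summed to 829 to 897 CPM in CPA-treated NIP libraries, against 927 to 1047.5 CPM, with 0 of 7 called, and to 512 to 724 CPM in CPA-treated NIL libraries, against 791 to 1137 CPM, where 1 of 7, Prph, fell. The 8 neural progenitor markers summed to 656 to 765 CPM in CPA-treated NIP libraries, against 1046 to 1063 CPM, with 0 called, and to 426 to 452 CPM in CPA-treated NIL libraries, against 616 to 846 CPM, where Vim and Fabp7 fell. Markers of endoderm and endothelium ran from 433 to 2805 CPM in CPA-treated NIP libraries, against 718 to 2355 CPM, and from 4507 to 14008 CPM in CPA-treated NIL libraries, against 3795 to 8977 CPM, with 0 of 12 called in each line. Their part in the tubulin result was not tested. Mesenchyme markers summed to at most 22.4 CPM and glia markers to at most 44.5 CPM in any library over the 20 libraries. Of 5 glia genes tested, 1, Aldh1l1, was called lower with CPA in NIP at 12 h and at 36 h, and of the 3 others Gfap, the astrocyte filament, had 0 reads in most libraries.

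**Figure D2:**
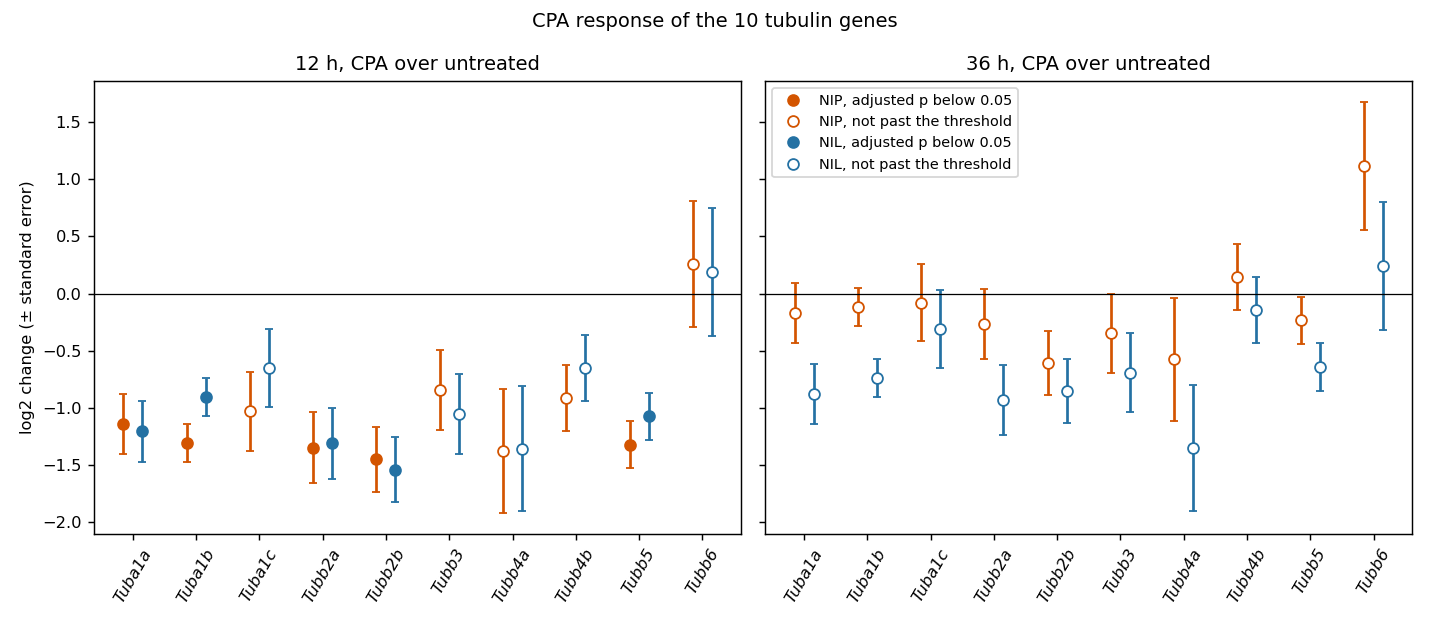
Log2 change with CPA over untreated (vertical axis, bars are ± 1 standard error) for the 10 tubulin genes at 12 h (left panel) and 36 h (right panel), NIP in orange and NIL in blue; filled points passed an adjusted p of 0.05. At 12 h 5 genes are filled in each line with changes between -0.91 and -1.54, and at 36 h none is filled and the NIP points of 8 genes lie between -0.61 and -0.08.

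By 36 h the median changes of the lines lay further apart, although no difference between the lines in the response passed a test. With edgeR 0 of 10 genes passed in NIP, where 2.33% of all genes did, and 0 of 10 in NIL, where 0.980% did. At an unadjusted p below 0.05 the counts were 1 in NIP, where 2000 of the 14792 genes lay below it, and 6 in NIL, where 2549 did. DESeq2 called 0 in NIP, where it called 4.93% of all genes, and 4 in NIL, where it called 5.82%. The median log2 change of the 10 genes was -0.20 in NIP and -0.72 in NIL, against 0.03 and 0.01 over all genes.

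In NIP at 36 h 8 of the 10 changes were negative, and they lay between -0.61 and -0.08. The untreated replicate 1 in this comparison is one of the libraries with a high share of Rn45s. Without it 0 of 10 passed as well, where 0.00656% of all genes did, and the change of Tubb4a was -0.15, against -0.57 with it. Tuba1a had 2291 and 2241 CPM with CPA, against 2637 and 2451 CPM in untreated NIP libraries (log2 change -0.17 ± 0.26, adjusted p = 0.837). Tuba1b had 271 and 323 CPM with CPA, against 311 and 333 CPM without (-0.12 ± 0.17, adjusted p = 0.822). Tubb5 had 2428 and 2403 CPM with CPA, against 2778 and 2899 CPM without (-0.23 ± 0.20, adjusted p = 0.694). The treated libraries of Tuba1a and Tubb5 lay below the untreated ones, and those of Tuba1b overlapped them. Tubb3 stood at 1939 and 1646 CPM with CPA, against 2411 and 2150.1 CPM without (-0.35 ± 0.35, adjusted p = 0.735). Tubb2b kept the most negative change, with 1191 and 1016 CPM with CPA, against 1777 and 1589.6 CPM without, its libraries not overlapping (-0.61 ± 0.28, adjusted p = 0.363). The remaining genes were Tubb2a (403.5 and 278 CPM with CPA, against 449 and 369.5 CPM), Tubb4a (242 and 118 CPM, against 339.5 and 198 CPM), Tuba1c (38.7 and 80.6 CPM, against 49.2 and 76.2 CPM) and Tubb4b (263 and 259.8 CPM, against 229.7 and 243 CPM). Of these, Tubb4b alone was higher with CPA in both libraries, by 0.14 ± 0.29 (adjusted p = 0.872).

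Tubb6 had the largest difference of any member in NIP at 36 h, with 116 and 85.5 CPM with CPA, against 45.3 and 47.3 CPM in untreated libraries. Both treated libraries were above both untreated ones, the log2 change was 1.12 ± 0.56, and the adjusted p was 0.422. Its untreated level had itself been 137 and 83.7 CPM at 0 h. Tubb4a was the 1 gene that passed in NIP at 36 h once replicate number was a block (-0.61 ± 0.17, adjusted p = 0.0305), where 10.3% of all genes passed.

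In NIL the 36 h libraries with CPA stayed further below the untreated ones. Tuba1a had 1597 and 1044 CPM with CPA, against 2544 and 2317 CPM in untreated NIL libraries (log2 change -0.88 ± 0.26, adjusted p = 0.126). Tuba1b had 221 and 217 CPM with CPA, against 359 and 371 CPM without, the closest to the threshold (-0.74 ± 0.17, adjusted p = 0.0557). Tubb2a had 187 and 99.4 CPM with CPA, against 310.1 and 236 CPM without (-0.93 ± 0.31, adjusted p = 0.157). These 3 genes had no overlap between treated and untreated libraries, and neither had Tuba1c, Tubb2b, Tubb4a and Tubb5. Tubb3, Tubb4b and Tubb6 overlapped. The share of all genes without overlap was not counted. Tubb2b had 855 and 551 CPM with CPA, against 1496 and 1037 CPM without (-0.85 ± 0.28, adjusted p = 0.156). Tubb5 had 2105 and 1534 CPM with CPA, against 2813 and 2863 CPM without (-0.64 ± 0.21, adjusted p = 0.147). Tubb4a had 68.8 and 27.6 CPM with CPA, against 153 and 94.3 CPM without, with the widest error of the 10 after Tubb6 (-1.35 ± 0.55, adjusted p = 0.229). Tubb3 overlapped, with 1134 and 478 CPM with CPA, against 1524 and 1078 CPM without (-0.69 ± 0.35, adjusted p = 0.331). For Tuba1c the change was -0.31 ± 0.34, for Tubb4b -0.14 ± 0.29 and for Tubb6 0.24 ± 0.56, with adjusted p from 0.650 to 0.837.

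In the fit with replicate number as a block, 7 of 10 genes fell in NIL at 36 h, where 18.2% of all genes passed: Tuba1a, Tuba1b, Tubb2a, Tubb2b, Tubb3, Tubb4a and Tubb5. Their changes in that fit ran from -0.64 ± 0.20 for Tubb5 (adjusted p = 0.0324) to -1.43 ± 0.18 for Tubb4a (adjusted p = 0.000269). CPA-treated NIL 36 h replicate 2 is one of the libraries with a high share of Rn45s. Without CPA-treated replicate 1 it is the only treated library left in this comparison. Which tubulin genes passed with edgeR depended on the library left out, and so did the share of all genes that passed. In the same NIL comparison the 8 neuron markers summed to 1889 to 3821 CPM with CPA, against 4674 to 6902 CPM, with 1 of 8, Rbfox3, called lower, and the 7 motor neuron markers to 321 to 532 CPM, against 743 to 997 CPM, with 1 of 7, Slc18a3, called lower. Endoderm and endothelium markers summed to 12544 to 27223 CPM with CPA, against 4395 to 14856 CPM, and pluripotency markers to 169.5 to 679.5 CPM, against 49.4 to 351 CPM, with 0 called in each list. In NIP at 36 h the neuron markers summed to 3076 to 4642 CPM with CPA, against 5189 to 6707 CPM, with 0 of 8 called, the motor neuron markers to 1012.5 to 1107 CPM, against 1046 to 1285 CPM, with 1 of 7, Isl2, called lower, and the endoderm and endothelium markers to 324 to 6929 CPM, against 507 to 2821 CPM, with 0 of 12 called. Proliferation markers ran from 73.2 to 202 CPM in CPA-treated NIP libraries, against 69.1 to 131 CPM, and from 458 to 692 CPM in CPA-treated NIL libraries, against 235 to 613 CPM, with 0 of 10 called. The part of these shifts in the tubulin values was not tested.

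**Figure D3:**
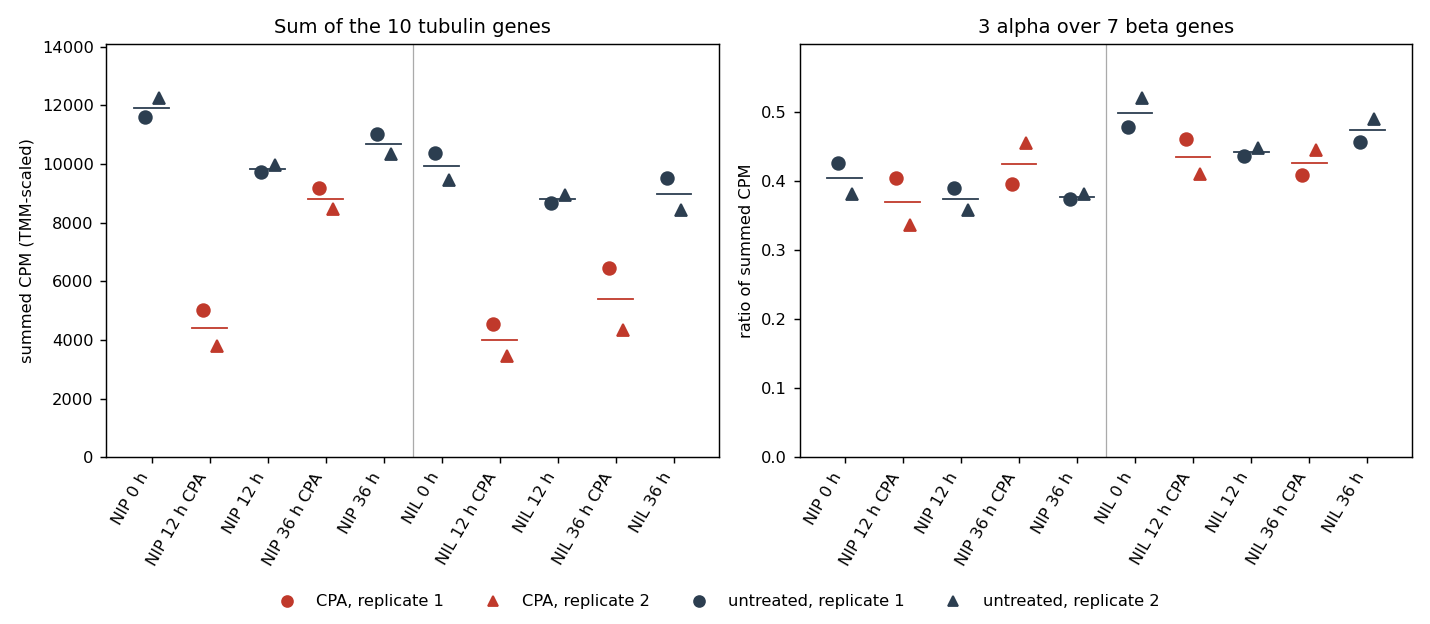
Summed level of the 10 tubulin genes (left, CPM) and the ratio of the 3 alpha to the 7 beta genes (right) in each library, NIP left and NIL right in each panel, with red for CPA, dark for untreated, circles for replicate 1, triangles for replicate 2 and lines for means. The sum is lowest at 12 h of CPA in both lines (3812 and 5033 CPM in NIP, 3455 and 4538 CPM in NIL) and the ratio stays between 0.336 and 0.520.

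The sum over the genes shows the course in each line. In NIP it was 11587 and 12251 CPM at 0 h, 5033 and 3812 CPM after 12 h of CPA, against 9715 and 9964 CPM untreated at 12 h, and 9182 and 8452 CPM after 36 h of CPA, against 11027 and 10356 CPM untreated at 36 h. In NIL it was 10376 and 9465 CPM at 0 h, 4538 and 3455 CPM after 12 h of CPA, against 8676 and 8949 CPM untreated at 12 h, and 6467 and 4354 CPM after 36 h of CPA, against 9513 and 8442 CPM untreated at 36 h. Within a replicate set, CPA libraries at 36 h thus held 83.3% and 81.6% of the untreated sum in NIP and 68.0% and 51.6% in NIL. Tubulin reads made up between 0.322% and 1.22% of all gene reads.

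Whether the response differed between times or between lines was tested directly. For 36 h minus 12 h of CPA in NIP, 0 of 10 genes passed with edgeR, where 0.0135% of all genes did, while 5 had an unadjusted p below 0.05, as did 848 of the 14792 genes. DESeq2 called 2 (Tuba1b and Tubb5, where 0.553% of all genes passed) and the fit with the replicate block 1 (Tuba1b, where 1.09% of all genes passed). The difference for Tuba1b was 1.19 ± 0.24 (adjusted p = 0.203), and 1.19 ± 0.23 (adjusted p = 0.0226) with the block. For Tubb5 it was 1.09 ± 0.29 (adjusted p = 0.402). The median difference over the 10 genes was 0.96, against 0.02 over all genes, and all 10 were positive. For 36 h minus 12 h in NIL, 0 of 10 passed, where 0.00676% of all genes did, with 0 at an unadjusted p below 0.05 and 0 with DESeq2. There too all 10 differences were positive, from 0.004 to 0.69, with a median of 0.35 against 0.01 over all genes. In NIL the sign depended on the fit for some genes. Tubb4a kept it in 7 of 16 alternative runs (-0.045 ± 0.247 with the block) and Tubb6 in 10 of 16. Tuba1a, Tuba1b, Tubb2a and Tubb3 kept it in 15 of 16 and the other genes in all. The 12 h and 36 h responses share no libraries.

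For NIP minus NIL in the response at 12 h, 0 of 10 genes passed, where 0 of all genes (0%) did with edgeR, 0 had an unadjusted p below 0.05 and DESeq2 called 0. The differences ran from -0.40 ± 0.23 for Tuba1b to 0.21 ± 0.49 for Tubb3. At 36 h all 10 differences were positive, from 0.23 ± 0.48 for Tuba1c to 0.88 ± 0.79 for Tubb6, with a median of 0.52 against 0.06 over all genes, and 0 passed with edgeR, where 0% of all genes did. Tuba1c, Tubb2b and Tubb3 kept the sign in 14 of 16 alternative runs and the other genes in all. At an unadjusted p below 0.05 the count was 1, Tuba1b (0.62 ± 0.24), beside 651 of the 14792 genes, and DESeq2 called 0. The larger distance from untreated in NIL at 36 h is therefore a description of these libraries.

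Under CPA the level itself was set against the other line. At 36 h with CPA, 3 of 10 genes were higher in NIP than in NIL and 0 lower, where 16.9% of all genes passed. These were Tubb2a (403.5 and 278 CPM in NIP, against 187 and 99.4 CPM in NIL; log2 difference 1.25 ± 0.31, adjusted p = 0.0145), Tubb3 (1939 and 1646 CPM in NIP, against 1134 and 478 CPM in NIL; 1.153 ± 0.352, adjusted p = 0.0389) and Tubb4a (242 and 118 CPM in NIP, against 68.8 and 27.6 CPM in NIL; 1.89 ± 0.56, adjusted p = 0.0328). In each the NIP libraries were above the NIL ones. With the replicate block 6 of 10 were higher, where 37.5% of all genes passed: the same 3, and Tuba1a, Tuba1b and Tubb2b. The edgeR count ran from 0 to 4 when 1 library was left out, being 0 without CPA-treated NIP replicate 1 or CPA-treated NIL replicate 2, 2 (Tubb2a and Tubb4a) without CPA-treated NIP replicate 2, and 4 without CPA-treated NIL replicate 1, while the share of all genes that passed ran from 7.47% to 17.6%. In the same comparison Col1a1, Col1a2, Col3a1 and Twist1 of the mesenchyme markers, Pcna and Bub1 of the proliferation markers and Esrrb of the pluripotency markers were called lower in NIP, and Snap25 of the neuron markers higher. Of the 7 motor neuron markers, 1 was called higher and 2 lower in NIP, and these were Isl2, Mnx1 and Prph. The neuron markers summed to 3076 to 4642 CPM in NIP with CPA, against 1889 to 3821 CPM in NIL with CPA, and the part of these markers in the tubulin differences was not tested. At 12 h with CPA, 0 of 10 passed with edgeR, where 10.2% of all genes did, and 2 had an unadjusted p below 0.05, as did 3532 of the 14792 genes. DESeq2 called Tuba1b there, where 13.6% of all genes passed. With the block 5 of 10 passed, where 26.7% of all genes did. In that fit Tubb2a, Tubb3 and Tubb4a were higher in NIP, and Tuba1b (-0.50 ± 0.16, adjusted p = 0.0304) and Tuba1c (-0.79 ± 0.19, adjusted p = 0.00513) were lower in NIP.

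Without CPA the NIP libraries of Tubb2a, Tubb3 and Tubb4a lay above the NIL ones at each of the 3 times. At 0 h Tubb2a had 396 and 400.2 CPM in NIP libraries, against 259.7 and 194 CPM in NIL libraries. Tubb3 had 2497 and 2581 CPM in NIP, against 1821 and 1396 CPM in NIL. Tubb4a had 262 and 199.6 CPM in NIP, against 151 and 84.3 CPM in NIL. The log2 differences at 0 h were 0.81 ± 0.31 for Tubb2a, 0.66 ± 0.35 for Tubb3 and 0.97 ± 0.54 for Tubb4a. At 0 h the NIP libraries also lay above the NIL ones for Tubb6 (0.98 ± 0.56), Tubb4b (0.45 ± 0.29), Tubb5 (0.21 ± 0.20) and Tuba1b (0.10 ± 0.17), and at 12 h and 36 h for Tubb2b (0.09 ± 0.28 at 12 h, 0.41 ± 0.28 at 36 h). The NIP libraries lay below the NIL ones for Tuba1b at 12 h (-0.10 ± 0.17) and 36 h (-0.18 ± 0.17), and for Tuba1c at 36 h (-0.44 ± 0.34). How many of all genes separated in this way was not counted. With edgeR 0 of 10 genes passed between the lines at 0 h (12.5% of all genes did), at 12 h (12.0%) and at 36 h (11.6%), with 1 gene at an unadjusted p below 0.05 at each time, as 3622 to 3880 of the 14792 genes were, and 0 called by DESeq2. With the replicate block 3 of 10 were higher in NIP at 0 h (26.3% of all genes passed) and 3 at 36 h (28.8%), namely Tubb2a, Tubb3 and Tubb4a at both times, and 2 at 12 h (27.9%), Tubb2a and Tubb4a. In that fit Tubb4a differed by 1.03 ± 0.17 at 0 h (adjusted p = 0.000264), by 1.09 ± 0.17 at 12 h and by 1.11 ± 0.17 at 36 h. The shares called among these genes were close to those among all genes. Among the alpha genes, Tuba1a differed by 0.05 ± 0.26 at 0 h, 0.01 ± 0.26 at 12 h and 0.07 ± 0.26 at 36 h. Marker lists also differed between the untreated lines. Over all untreated libraries the proliferation markers summed to 69.1 to 210.0 CPM in NIP and 235 to 695 CPM in NIL, the pluripotency markers to 9.65 to 43.0 CPM in NIP and 43.2 to 351 CPM in NIL, and the mesenchyme markers to 1.835 to 3.53 CPM in NIP and 7.64 to 22.4 CPM in NIL, with no overlap. The endoderm and endothelium markers overlapped, with 507 to 2821 CPM in NIP and 2442 to 14856 CPM in NIL. At 0 h edgeR called 4 of 6 mesenchyme markers lower in NIP, 1 of 7 motor neuron markers higher and 3 lower, and 2 of 8 neural progenitor markers higher and 2 lower. Their part in the line differences was not tested.

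For time in culture alone, no tubulin gene passed edgeR's test over all libraries in either line. In NIP at 12 h against 0 h, 0 of 10 passed (0% of all genes did), and all 10 changes were negative, with a median of -0.32. In NIL at 12 h 0 of 10 passed (0% of all genes did), with a median of -0.13. At 36 h against 0 h, 0 of 10 passed in NIP, where 1.29% of all genes did, and 0 of 10 in NIL, where 0.0270% did. The count at an unadjusted p below 0.05 was 1 in NIP at 36 h, Tubb6, and 0 in the other 3 comparisons, and DESeq2 called 0 in each of the 4. Tubb6 had 45.3 and 47.3 CPM in NIP at 36 h, against 137 and 83.7 CPM at 0 h (log2 change -1.25 ± 0.56, adjusted p = 0.322). The largest negative change of the abundant genes was that of Tuba1a in NIP at 12 h, -0.35 ± 0.26, which is small beside its change with CPA at the same time.

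**Figure D4:**
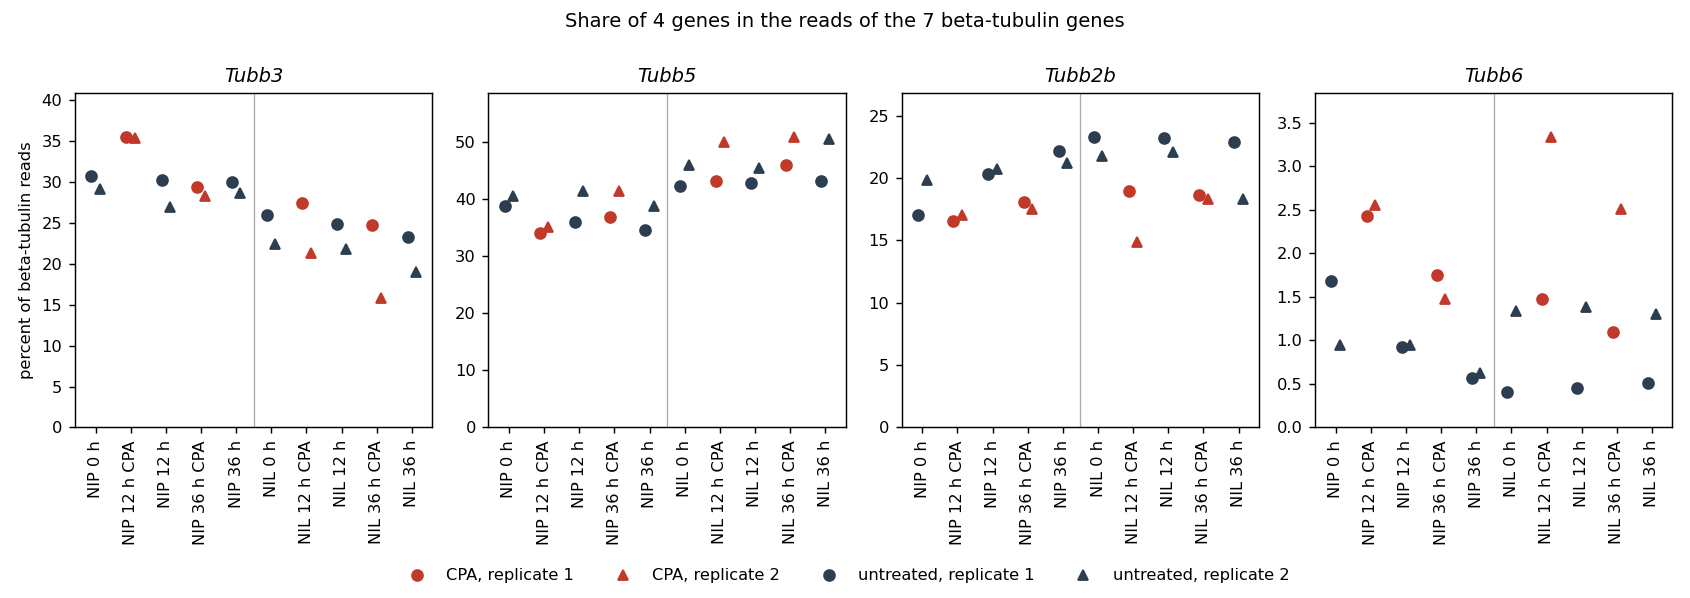
Share of Tubb3, Tubb5, Tubb2b and Tubb6 in the reads of the 7 beta-tubulin genes (percent, vertical axes from 0) in each library, NIP left and NIL right, red for CPA, dark for untreated, circles for replicate 1 and triangles for replicate 2. Tubb3 takes 35.6% and 35.4% after 12 h of CPA in NIP, and Tubb6 takes 2.43% and 2.56% there, against 0.922% and 0.946% untreated.

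The mix of isotypes was compared within the alpha and within the beta genes. Tuba1a made up 77.9% to 89.4% of alpha reads in every library. The ratio of alpha to beta reads was 0.404 and 0.336 in NIP after 12 h of CPA, against 0.390 and 0.359 untreated, and 0.461 and 0.410 in NIL after 12 h of CPA, against 0.437 and 0.448 untreated, so the groups overlapped in both lines. After 36 h of CPA the ratio was 0.395 and 0.455 in NIP, against 0.373 and 0.3815 untreated. In NIL it was 0.409 and 0.444 after 36 h of CPA, against 0.457 and 0.490 untreated. At 36 h the groups thus did not overlap, with CPA higher in NIP and lower in NIL. Each 36 h comparison includes a library with a high share of Rn45s. Within the beta genes, Tubb3 held 35.6% and 35.4% of reads in NIP after 12 h of CPA, against 30.2% and 27.0% untreated. In NIL the Tubb3 shares overlapped, at 27.4% and 21.3% with CPA and 24.8% and 21.9% without. At 36 h the Tubb3 shares overlapped in NIP too, at 29.46% and 28.35% with CPA and 30.03% and 28.68% without. Tubb2b held 16.54% and 17.03% in NIP after 12 h of CPA, against 20.3% and 20.7% untreated, and 18.9% and 14.8% in NIL, against 23.2% and 22.1%, with no overlap in either line. Tubb6 held 2.43% and 2.56% of beta reads in NIP after 12 h of CPA, against 0.922% and 0.946% untreated, and 1.48% and 3.34% in NIL, against 0.457% and 1.38%. These shares and ratios are descriptions of the libraries, with no test, and they leave out reads lost between paralogs.

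Across the 20 libraries the genes fell into patterns that the groups and the replicate sets both feed. The correlations are of log2 CPM over 20 libraries that share treatments, lines and sets, and so are descriptions. Tuba1a ran with Tubb2b (r = 0.962) and Tubb5 (0.957), and Tubb5 with Tuba1b (0.951). Tubb3 and Tubb4a ran together (0.959), as did Tubb2a with Tubb4a (0.959) and with Tubb3 (0.948). Tuba1c was close to Tuba1b (0.789) and far from Tubb4a (0.032) and Tubb3 (0.149). Tubb6 had r between -0.240 and 0.409 with the other 9. Among the 9489 other genes with a mean of at least 10 CPM, those most like the neuronal beta genes were Coro1a, an actin-binding protein, with Tubb2a (r = 0.974), Dhrs1 with Tubb3 (0.972) and Cend1, a factor of neuronal cell cycle exit, with Tubb4a (0.957). The next for Tubb3 were Parp6 (0.963) and Stmn2, a tubulin-binding stathmin of growing axons (0.955), and the next for Tubb4a were Snap25, a synaptic SNARE protein (0.956), and Olfm1 (0.956). For Tuba1a the closest was Ckb, brain creatine kinase (0.937), for Tubb2b the kinase Mapk3 (0.945) and for Tubb5 the cytoplasmic actin Actg1 (0.958). Tuba1b was closest to BC029722 (0.909), Tuba1c to Coa3 (0.901) and Tubb4b to Mrpl34 (0.912). Tubb6 was closest to Col18a1, a basement membrane collagen (0.907), followed by the transcription factors Zic2 (0.895) and Etv5 (0.895).

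Genes that work with tubulin were examined as 8 lists, and few of them passed with CPA. Of 20 genes for tubulin folding, which include CCT, prefoldin and the cofactors, 0 passed in any of the 4 CPA comparisons, with medians of -0.25 in NIP and -0.27 in NIL at 12 h and -0.01 in NIP and -0.14 in NIL at 36 h. Ttc5, Scaper and Cnot11, the genes of tubulin mRNA autoregulation, gave 0 of 3 called in each comparison, with medians of -0.43 in NIP and -0.14 in NIL at 12 h. Of the 6 other tubulins tested, among them gamma-, delta- and epsilon-tubulin, 0 passed. Tuba3b, Tuba8, Tubal3 and Tubb1 had too few reads to be tested. Of 16 nucleation genes and of 10 severing and depolymerising genes 0 passed in any of the 4 comparisons.

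Of 27 microtubule-associated proteins, 1 passed in any CPA comparison: Mapre3, the neuronal end-binding protein EB3, fell to 49.7 ± 11.1 CPM in NIL after 36 h of CPA, against 79.3 ± 2.14 CPM untreated (SD, n = 2 each; log2 change -0.67 ± 0.15, adjusted p = 0.04997). The medians of this list were -0.41 in NIP and -0.39 in NIL at 12 h and -0.49 in NIP and -0.76 in NIL at 36 h. Among 15 genes of tubulin modification tested, Ttll12 fell in NIP at 12 h (55.4 ± 6.08 CPM with CPA, 85.0 ± 4.93 CPM untreated; -0.62 ± 0.15, adjusted p = 0.0296). Ttll7, a polyglutamylase of beta-tubulin, fell in NIP at 36 h to 199 ± 3.23 CPM with CPA, against 591 ± 78.9 CPM untreated (-1.57 ± 0.34, adjusted p = 0.0305). Of 21 axonal transport genes, 2 passed in NIP at 12 h. Dctn1, the large dynactin subunit, fell to 374 ± 38.7 CPM with CPA, against 721 ± 27.0 CPM untreated (-0.94 ± 0.18, adjusted p = 0.0106). The kinesin Kif21b rose instead, to 193 ± 23.4 CPM with CPA, against 68.8 ± 12.8 CPM untreated (1.49 ± 0.21, adjusted p = 0.00202), and it also rose at 36 h in NIP (110.2 ± 5.54 CPM with CPA, 42.8 ± 11.5 CPM untreated; 1.36 ± 0.22, adjusted p = 0.00542). Without CPA, Kif21b was itself called lower in NIP at 36 h than at 0 h, where 1.29% of all genes passed. At 12 h of CPA 2 of the 118 other microtubule genes tested were called lower in NIP, where 4.71% of all genes passed in either direction, and 0 in NIL, where 2.21% did. No difference between these genes and the tubulin genes was tested. The 36 h comparisons of Ttll7 and Kif21b in NIP include untreated replicate 1, a library with a high share of Rn45s. That of Mapre3 in NIL includes CPA-treated replicate 2, which also has a high share. Whether these 36 h calls hold without those libraries was not examined gene by gene.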

How the data were processed

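RNA of 20 libraries (total RNA, ribosomal RNA depleted, KAPA RNA HyperPrep per the labels' protocols) was counted by the authors, and the deposited counts are whole reads per gene symbol, with 24421 symbols and 5 summary lines that were left out of library sizes. Per the submitters' processing notes reads on GRCm38 were processed with HTSeq 0.6.1p1, Picard, TopHat2 2.1.1 and Bowtie2 2.3.2. Strand setting and annotation release are not given in the sources used here. Reads that mapped to more than 1 place were 18.2% to 52.6% of reads, those outside genes 7.77% to 18.7% and ambiguous ones 0.156% to 0.458%.

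Counts were fitted across all genes with edgeR 4.0.16 (R 4.3.3): filterByExpr by group, TMM factors, robust quasi-likelihood, a mean per group over all 20 libraries, 10 residual degrees of freedom, a biological coefficient of variation of 27.5%, 17 comparisons, and Benjamini-Hochberg adjustment over the 14792 genes of each. The code was tested on simulated data. The 2 libraries of each group were not copies of each other: their counts gave a chi-square of 30.1 to 316 per degree of freedom. Libraries with the same replicate number deviated together (r from 0.243 to 0.763 over 45 pairs of groups, median 0.467; the numbers come from the titles), so values with the number as a block (9 residual degrees of freedom, coefficient of variation 15.7%) stand beside results whose call or count they changed.

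The 10 tubulin genes and the lists were chosen with earlier results of these data known. Named beside the 10 were, from each of 8 lists of microtubule genes, up to 4 members that passed in a CPA comparison and, for each tubulin gene, the 3 most correlated genes with a mean of at least 10 CPM. Called marker genes were named after their values were seen. Alternatives were DESeq2 1.42.0, other scalings, no filter, Rn45s left out, the compared groups alone and libraries left out.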

Additional observations from a re-analysis of the deposited data

Results flagged for a closer look

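Tubb4b moved in opposite ways in every replicate set of a pair of responses. For NIP minus NIL in the CPA response at 36 h, it was higher with CPA in both NIP sets (262.9 and 259.8 CPM with CPA, 229.7 and 243 CPM untreated) and lower in both NIL sets (191 and 248 CPM with CPA, 201 and 283 CPM untreated), a difference of 0.285 on the log2 scale that did not pass edgeR's test (adjusted p = 0.9999). For 36 h minus 12 h in NIP, it was higher with CPA in both sets at 36 h and lower in both at 12 h (130.3 and 103 CPM with CPA, 228 and 213 CPM untreated), a difference of 1.06 (adjusted p = 0.703). Of its main transcript, 55.5% of stretches of 50 bases are repeated in other genes' transcripts.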

How the results depend on the processing

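No gene that passed, or passed with the block, changed direction in any alternative run, and 19 of 20 gene and line pairs at 12 h of CPA kept their sign in every one; the exception was Tubb6 in NIL. Over the 4 CPA comparisons 32 of 40 pairs kept it, and over all 17 comparisons 112 of 170. The counts of tubulin genes called moved more. With the replicate block the count was 9 at 12 h in NIP and 7 in NIL under CPA, 1 and 7 at 36 h, 3, 2 and 3 between the untreated lines at 0 h, 12 h and 36 h, 5 and 6 between the lines with CPA at 12 h and 36 h, and 1 for 36 h minus 12 h in NIP; the block moved no other count of tubulin genes. DESeq2 called 4 at 36 h of CPA in NIL (5.82% of all genes), 1 between the lines at 12 h of CPA (13.6%) and 2 for 36 h minus 12 h in NIP (0.553%). The shares in brackets are of all genes under the same setting. With library size alone the counts were 1 in NIP (1.48%) and 0 in NIL (0.771%) at 12 h of CPA and 0 between the lines at 36 h of CPA (8.29%). That scaling also moved the median over all genes, which for NIP minus NIL in the response at 36 h was 0.471 with it, against 0.06 with TMM. Without the filter 3 passed at 12 h of CPA in NIL (1.31%) and 1 between the lines at 36 h of CPA (10.0%). Fitting the compared groups alone gave 0 at 12 h of CPA in NIL (0.460%), 1 (Tubb6, lower) for untreated 36 h against 0 h in NIP (3.80%), and between the lines 1 at 12 h (10.5%) and 0 at 36 h of CPA (2.20%). Without both libraries high in Rn45s, 0 passed between the lines at 36 h of CPA (6.56%). The cause was not tested for any of these shifts. Leaving out 1 library gave 1 to 2 at 12 h of CPA in NIP and 0 to 2 in NIL, 0 to 3 at 36 h in NIL (0% to 3.38% of all genes), 0 to 1 between the lines at 12 h of CPA (4.18% to 6.05%) and 0 to 4 at 36 h of CPA. With 2 libraries a group, the lone library left in an arm is assumed to vary like the other groups. The lowest count behind a tubulin value was 215 reads (Tubb4a). How reads lost between paralogs bear on these comparisons was not tested.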
